A study of Mus musculus with 6 samples.

Results

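Fos, Fosb, Fosl2, Jun, Junb and Jund were followed in prefrontal cortex by bulk RNA sequencing. They were taken by gene symbol, and all 6 were found among the 21878 genes of the deposited tables. A pair of groups, each of 3 mice, was compared. The Gls1_CamkIIaCre mice carried CamKIIα-Cre and 1 floxed allele of Gls1, the gene of glutaminase 1 (CamKIIαCre;Gls1+/flox). The control mice were littermates with the same Cre and no floxed allele (CamKIIαCre;Gls1+/+), which the sample labels call WT. Cre is driven in forebrain CamKIIα neurons, and the deletion is mosaic and heterozygous, since homozygous mosaic mice were not viable per the series description. Whole tissue was sequenced, with no sorting. The labels name neither the age and sex of the mice nor the time of dissection and the handling before it.

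Fos and Jun proteins pair through a leucine zipper to form the transcription factor AP-1. Fos proteins need a Jun partner, whereas Jun proteins can also pair with each other. In neurons Fos, Fosb, Jun and Junb are classic immediate early genes, transcribed within minutes of calcium entry and kinase signalling without new protein synthesis. Jund is expressed steadily in many tissues, and FosB is known for a truncated, long-lived form, ΔFosB, made by alternative splicing of the same gene. Fosl2 encodes Fra-2, and Jun encodes c-Jun, a substrate of JNK kinases.

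The sequence upstream of 4 of the genes is shown because Fos, Fosb and Junb were higher in every Gls1_CamkIIaCre library than in any control library, whereas Jun was not. Each run is the 250 bases before a RefSeq start site of the gene, 5′ to 3′ on the gene's strand, from the RefSeq table of build GRCm38.p6. Capitals mark any of 3 motifs. One is TGACG, the core shared by cAMP response elements, which bind CREB and ATF factors. Another is its relative TGACNTCA, and the last is the TATA box in the form TATAAA.
Fos: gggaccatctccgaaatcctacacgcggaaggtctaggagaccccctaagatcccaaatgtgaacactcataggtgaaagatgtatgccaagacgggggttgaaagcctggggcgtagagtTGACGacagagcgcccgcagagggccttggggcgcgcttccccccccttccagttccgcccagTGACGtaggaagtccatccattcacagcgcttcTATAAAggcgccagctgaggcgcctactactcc
Fosb: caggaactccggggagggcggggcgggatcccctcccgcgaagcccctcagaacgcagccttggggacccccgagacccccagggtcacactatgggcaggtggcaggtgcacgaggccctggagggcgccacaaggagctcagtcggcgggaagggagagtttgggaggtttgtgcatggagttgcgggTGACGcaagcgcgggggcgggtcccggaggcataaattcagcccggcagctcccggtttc
Junb: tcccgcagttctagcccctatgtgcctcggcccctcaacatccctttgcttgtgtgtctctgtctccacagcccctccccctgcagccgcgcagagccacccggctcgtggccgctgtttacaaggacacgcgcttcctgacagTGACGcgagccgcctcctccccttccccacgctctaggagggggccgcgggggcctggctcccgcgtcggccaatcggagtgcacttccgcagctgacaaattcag
Jun: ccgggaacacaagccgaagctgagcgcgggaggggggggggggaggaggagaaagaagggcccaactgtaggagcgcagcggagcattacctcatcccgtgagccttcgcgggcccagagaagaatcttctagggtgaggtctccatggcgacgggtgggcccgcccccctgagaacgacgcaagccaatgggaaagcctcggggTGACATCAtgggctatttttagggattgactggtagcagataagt

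The Fos window lies at chr12:85473640-85473889 on the plus strand, the Fosb window at chr7:19310046-19310295, the Junb window at chr8:84978749-84978998 and the Jun window at chr4:95052223-95052472, these 3 on the minus strand. TGACG, searched on both strands, lay in the windows of Fos (first base 129 and 66 bases upstream of the start), Fosb (60 bases) and Junb (106 bases), and in 17.8% of all 32851 RefSeq windows of this length. The RefSeq span of Fosb reaches base 19310118, beyond the start site used, so part of its window, with the TGACG match, lies inside that span. TGACNTCA, which overlaps TGACG where N is G, lay in the Jun window as TGACATCA, 45 bases upstream, and in 7.49% of windows. TATAAA lay in the Fos window, 33 bases upstream, and in 12.4% of windows. A site of the MEF2 type was found once in the Jun window, 33 bases upstream and matching on both strands, and in 3.2% of windows. CCAAT lay in the windows of Jun and Junb, and in 33.8% of windows. No window of the 6 genes held TGACTCA, the consensus form of the AP-1 element (4.46% of windows), or TGACGTCA (1.55%). None held a CArG box, the SRF site (1.47%). Bases farther upstream than the windows were not searched, so sites there are not excluded. AP-1 elements of another spelling were not searched as such, and their absence is not claimed. The windows of Fosl2 and Jund held none of the motifs searched. The nearest GENCODE M21 start of a coding transcript lay 1210 bases downstream of the RefSeq start for Jund and 30 bases downstream for Junb, while that of Fosl2 lay farther upstream. A match is a run of letters in the reference and says nothing of binding in these samples. The windows shown were chosen by the members' values, and no tie between the motifs and the group differences was tested.

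The 6 libraries held between 17987807 and 19330961 counts. Over all 14440 genes that passed the filter on low counts, 571 were called higher and 619 lower in Gls1_CamkIIaCre by edgeR's quasi-likelihood test at a Benjamini-Hochberg adjusted p under 0.05 (48.0% of calls higher, against 36.4% with upper-quartile factors and 18.1% by limma on log2(FPKM + 1)). Camk2a, whose promoter drives the Cre, was not called (3562 ± 187 CPM in Gls1_CamkIIaCre and 3256 ± 58.3 CPM in control, SD, n = 3 each, edgeR adjusted p = 0.0602). Markers of excitatory cortical neurons were present in every library, with sums of 5711 to 6259 CPM over 12 genes in Gls1_CamkIIaCre and 5563 to 5879 CPM in control, and 2 of the 12 were called higher. Of 20 striatal neuron markers, 17 were called lower, with sums of 564 to 610 CPM in Gls1_CamkIIaCre and 1064 to 1630 CPM in control, and none was at 0 in all libraries. Calls among markers of meninges (6 of 10), oligodendrocytes (5 of 10), endothelial and mural cells (5 of 10), astrocytes (4 of 10), inhibitory neurons (4 of 10) and microglia (3 of 10) were also all lower. Log2 fold changes of the 20 striatal markers ran from -3.49 to -0.18, with a median of -1.61. In whole tissue, fewer cells of a type in the dissected piece and less RNA per cell cannot be told apart. Whether the pieces of both groups held equal amounts of striatal tissue was not tested.

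Of the 6 Fos and Jun genes, Fosb and Junb rose in Gls1_CamkIIaCre cortex, each by about 1.4-fold (1.42 and 1.41), and no member was called lower. These 2 of 6 stood beside 3.95% of all tested genes called higher. The count of members called lower was 0 by edgeR, by DESeq2, by limma voom and at an unadjusted edgeR p under 0.05, and 4.29% of all tested genes were called lower. All 6 passed the filter, and their median log2 fold change was 0.35, beside -0.0024 over all tested genes. Fos had the largest fold of the 6, varied most between libraries of a group, and was not called. Values below are CPM (counts relative to library size, scaled by TMM factors), and fold changes are Gls1_CamkIIaCre over control.

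Fos, the founding member and the usual mark of recently active neurons, had 23.2, 31.1 and 18.7 CPM in the Gls1_CamkIIaCre libraries and 17.4, 12.4 and 10.5 CPM in the control libraries. Every Gls1_CamkIIaCre library was above every control library, though the lowest of them stood close to control 1. The gene averaged 24.3 ± 6.29 CPM in Gls1_CamkIIaCre and 13.4 ± 3.54 CPM in control (SD, n = 3 each). The log2 fold change was 0.85 ± 0.29 (SE, 95% interval 0.094 to 1.61), with an unadjusted p of 0.0347 and an edgeR adjusted p of 0.180. The adjusted p was 0.0114 with limma voom, 0.00833 with a non-robust edgeR fit and 0.0650 with DESeq2, and between 0.109 and 0.387 by edgeR when any 1 library was left out. The counts behind these values were 433, 559 and 355 in Gls1_CamkIIaCre and 340, 237 and 195 in control.

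Fosb, an activity-induced partner of Jun proteins whose counts here sum the full-length and truncated splice forms, had 14.6, 19.4 and 14.9 CPM in Gls1_CamkIIaCre and 11.8, 12.3 and 10.2 CPM in control. The groups did not overlap, and Gls1_CamkIIaCre 2 was the highest of the 6 libraries. Fosb averaged 16.3 ± 2.68 CPM in Gls1_CamkIIaCre and 11.4 ± 1.12 CPM in control (SD, n = 3 each). Its log2 fold change was 0.51 ± 0.11 (SE, 95% interval 0.27 to 0.75, edgeR adjusted p = 0.00958). Without Gls1_CamkIIaCre 2 the log2 fold change was 0.37 and the adjusted p 0.0910.

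Junb, a Jun protein that activates transcription more weakly than c-Jun and is induced with Fos, had 50.02, 61.4 and 52.5 CPM in Gls1_CamkIIaCre and 42.8, 39.7 and 33.3 CPM in control. Again the groups did not overlap. Junb averaged 54.6 ± 5.98 CPM in Gls1_CamkIIaCre and 38.6 ± 4.85 CPM in control (SD, n = 3 each), a log2 fold change of 0.50 ± 0.10 (SE, 95% interval 0.28 to 0.72, edgeR adjusted p = 0.0157). Without control 2 the log2 fold change was 0.52 and the adjusted p 0.0677. Non-overlap in this direction, found for 3 of the 6 genes, was found for 13.1% of all tested genes.

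The calls of both genes were made on counts. They ended when limma was run on the authors' FPKM values, which are scaled for gene length and depth. The input, the test and the added constant all differ there, and their parts were not separated. On log2(FPKM + 1) the log2 fold change was 0.32 for Fosb (limma adjusted p = 0.113) and 0.39 for Junb (0.0709). With the smaller constant, on log2(FPKM + 0.1), it was 0.40 for Fosb (limma adjusted p = 0.108) and 0.40 for Junb (0.0691). The sum of FPKM over all genes was 238924 to 243144 in the Gls1_CamkIIaCre libraries and 249602 to 252272 in the control libraries.

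**Figure D1:**
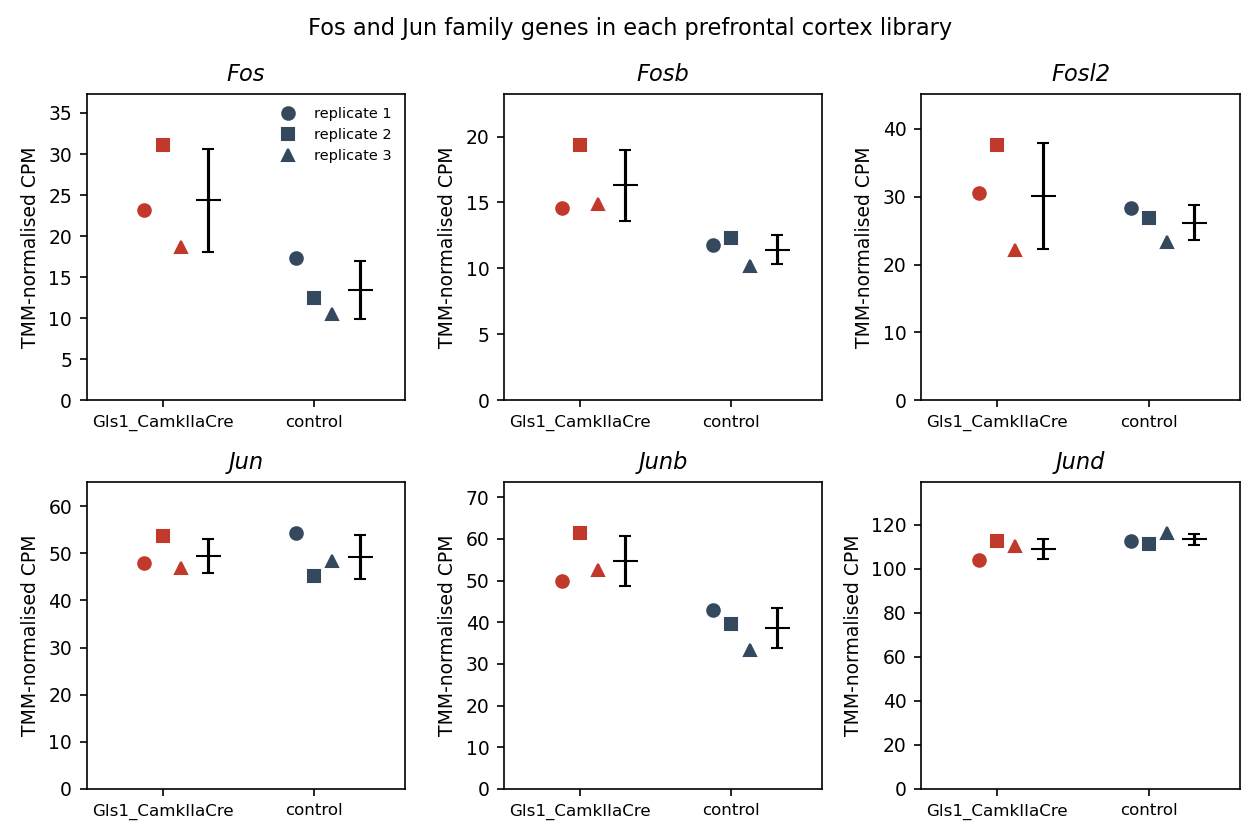
TMM-normalised CPM of each Fos and Jun gene in the 6 libraries, with Gls1_CamkIIaCre in red and control in dark blue, point shapes for replicate numbers, and the mean ± SD of 3 libraries beside each group; each vertical axis starts at 0. Fos, Fosb and Junb show no overlap between groups, while Fosl2, Jun and Jund overlap.

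Fosl2, which encodes Fra-2, spread more within the Gls1_CamkIIaCre group than between groups. It had 30.6, 37.7 and 22.1 CPM in Gls1_CamkIIaCre and 28.3, 26.8 and 23.3 CPM in control. Gls1_CamkIIaCre held both the highest and the lowest library. The log2 fold change was 0.20 ± 0.22 (SE, 95% interval -0.37 to 0.77, edgeR adjusted p = 0.678). It was 0.38 and passed the test without Gls1_CamkIIaCre 3 (adjusted p = 0.0261), and was 0.010 without Gls1_CamkIIaCre 2 (0.979), so that the value rests on which library is kept.

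Jun, the c-Jun gene, had 48.0, 53.6 and 46.9 CPM in Gls1_CamkIIaCre and 54.3, 45.2 and 48.3 CPM in control. The groups overlapped throughout, with means of 49.5 ± 3.59 CPM in Gls1_CamkIIaCre and 49.3 ± 4.64 CPM in control (SD, n = 3 each). The log2 fold change was 0.0056 ± 0.068 (SE, edgeR adjusted p = 0.976), and its 95% interval of -0.14 to 0.15 spans 0.91-fold to 1.11-fold. The sign of the Jun estimate turned with upper-quartile factors, on FPKM and without control 2, control 3 or Gls1_CamkIIaCre 2.

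Jund, the steadily expressed member, had 104, 113 and 110 CPM in Gls1_CamkIIaCre and 112, 111 and 116 CPM in control. The ranges overlapped, with means of 109 ± 4.57 CPM in Gls1_CamkIIaCre and 113 ± 2.58 CPM in control (SD, n = 3 each). The log2 fold change was -0.057 ± 0.045 (SE, edgeR adjusted p = 0.498), with a 95% interval of -0.15 to 0.036. On FPKM the groups did not overlap, with 36.3, 38.4 and 38.3 in Gls1_CamkIIaCre and 41.4, 41.1 and 42.2 in control, and limma on log2(FPKM + 1) gave an adjusted p of 0.0654. How many of all genes separate on FPKM was not counted. By limma on log2(FPKM + 1), 110 of all genes were called higher and 499 lower.

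**Figure D2:**
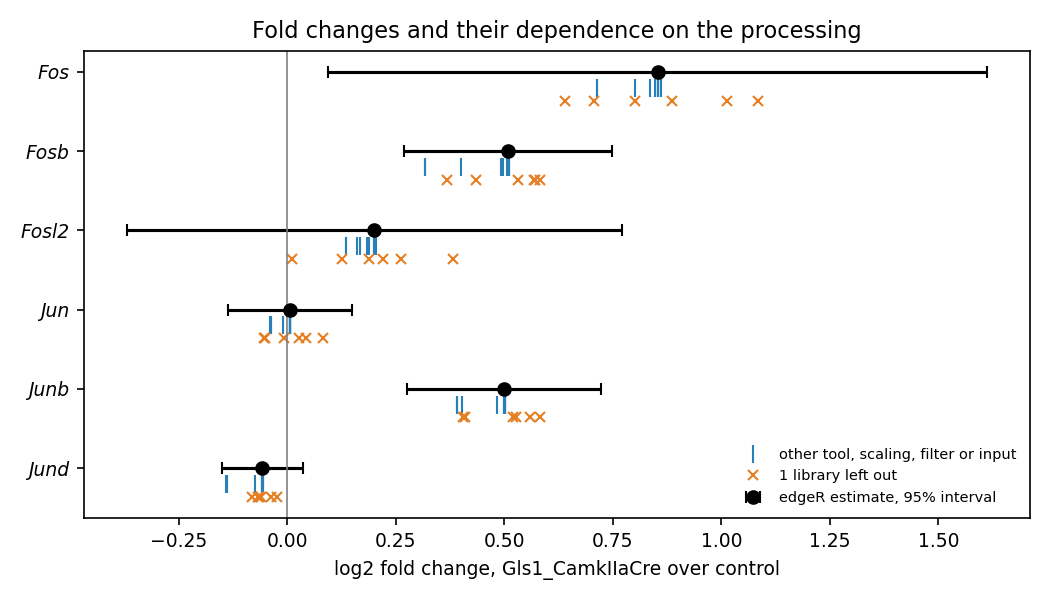
Log2 fold change of Gls1_CamkIIaCre over control for each gene: black points are the edgeR estimates with 95% intervals, blue ticks the values with another tool, scaling, filter or input, and orange crosses those with 1 library left out. The Fosb and Junb marks all lie right of 0, Fos does too with the widest interval, and the Jun marks fall on both sides.

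Ratios of raw counts of 2 members in the same library need no scaling between libraries, and are given as a description, since the pairs were chosen after the members' values were seen. The ratio of Junb to Jund counts was 0.482, 0.545 and 0.477 in Gls1_CamkIIaCre and 0.381, 0.357 and 0.287 in control. The ratio of Fosb to Jund was 0.141, 0.172 and 0.135 in Gls1_CamkIIaCre and 0.105, 0.111 and 0.0876 in control, and that of Fos to Jund was 0.223, 0.276 and 0.170 in Gls1_CamkIIaCre and 0.154, 0.112 and 0.0904 in control. In these 3 ratios, and in that of Junb to Jun, the groups did not overlap. How often the ratios of other gene pairs separate the groups was not counted. The geometric mean of the ratio was higher in Gls1_CamkIIaCre by 1.48-fold for both Junb and Fosb over Jund, 1.89-fold for Fos over Jund and 1.41-fold for Junb over Jun. An exact two-sided permutation test cannot go below p = 0.1 with the 20 splits of 3 against 3. It gave 0.1 for each of these 4, a value that their non-overlap fixes, and 0.4 for Fosl2 over Jund (0.125 and 0.4 after adjustment over the 5 ratios). This design could not pass 0.05, so the test adds nothing to the values. Jund barely differed between groups (log2 fold change -0.057), so the ratios over it largely repeat the members' own differences given above.

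Levels of different genes were compared on FPKM, which accounts for length. Jund stood highest at 37.7 ± 1.19 FPKM in Gls1_CamkIIaCre and 41.6 ± 0.558 FPKM in control (SD, n = 3 each). Junb followed at 35.2 ± 3.31 FPKM in Gls1_CamkIIaCre and 26.8 ± 3.90 FPKM in control, and in Gls1_CamkIIaCre its libraries overlapped those of Jund. Jun came next at 17.0 ± 1.12 FPKM in Gls1_CamkIIaCre and 17.5 ± 1.67 FPKM in control. Its libraries overlapped those of no other member.

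Fos had 10.02 ± 2.75 FPKM in Gls1_CamkIIaCre and 5.71 ± 1.57 FPKM in control. Fosl2 (4.64 ± 1.21 FPKM in Gls1_CamkIIaCre, 4.06 ± 0.451 FPKM in control) and Fosb (3.83 ± 0.610 FPKM in Gls1_CamkIIaCre, 2.87 ± 0.332 FPKM in control) were lowest. Libraries of Fosl2 and Fosb overlapped in Gls1_CamkIIaCre, and those of Fos and Fosl2 overlapped in control. The remaining member of the Fos family, Fosl1, which encodes Fra-1, was scarcely detected: it had 1, 0 and 1 counts in Gls1_CamkIIaCre and 0, 0 and 2 in control, and was not tested.

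**Figure D3:**
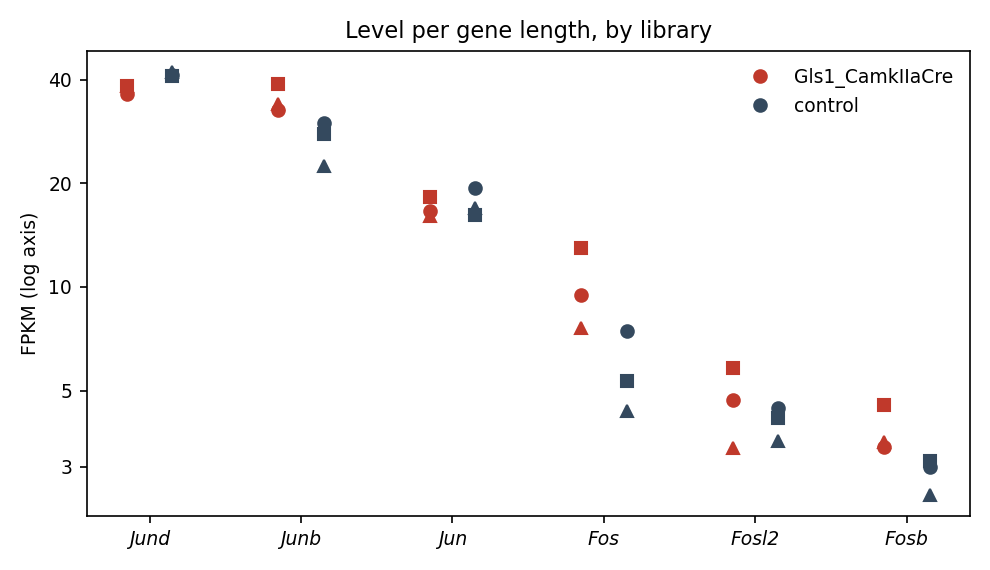
FPKM on a log axis of the 6 genes in order of mean level, Gls1_CamkIIaCre in red left of control in dark blue, with circles, squares and triangles for replicates 1, 2 and 3. The 3 Jun genes stand above the 3 Fos genes in every library.

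The makeup of the family's RNA is given as a description. Of the summed FPKM of the 6 genes, Jund made up 35.2%, 32.3% and 37.2% in Gls1_CamkIIaCre and 39.2%, 42.0% and 45.9% in control. Junb made up 31.7%, 32.8% and 33.0% in Gls1_CamkIIaCre and 28.4%, 28.5% and 24.4% in control. Fos made up 9.18%, 10.9% and 7.38% in Gls1_CamkIIaCre and 7.04%, 5.46% and 4.73% in control. Jun made up 16.1%, 15.3% and 15.6% in Gls1_CamkIIaCre and 18.4%, 16.5% and 18.4% in control. Fosb made up 3.31%, 3.81% and 3.44% in Gls1_CamkIIaCre and 2.83%, 3.19% and 2.71% in control. These 5 shares did not overlap between groups, with Jund and Jun lower and Junb, Fos and Fosb higher in Gls1_CamkIIaCre, while the share of Fosl2 overlapped (3.30% to 4.89% in Gls1_CamkIIaCre and 3.88% to 4.27% in control). The summed FPKM itself overlapped, at 103.2, 119 and 103.0 in Gls1_CamkIIaCre and 105.6, 97.8 and 92.0 in control. Shares depend on each other, since they add up to the whole. Jun had a lower share though its FPKM overlapped between groups (16.6, 18.3 and 16.1 in Gls1_CamkIIaCre and 19.4, 16.2 and 17.0 in control). The non-overlap of shares has no counterpart over all genes here.

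Libraries of the same group differed more in every member but Jund than in most genes of like level. The SD of log2 CPM within groups was 0.359 for Fos, against a median of 0.0937 over the 4491 tested genes whose mean CPM lay within a factor of 2 of it. This put Fos at percentile 99.5 of those genes and Fosl2 likewise (SD 0.287). Junb stood at percentile 97.9, Jun at 91.7 and Fosb at 90.6, while Jund, with an SD of 0.0488, stood at 40.6. Among the Gls1_CamkIIaCre libraries, replicate 2 was the highest for all 6 genes. Among the control libraries, replicate 3 was the lowest for Fos, Fosb, Fosl2 and Junb.

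The profiles over the 6 libraries were compared by the root mean square difference of log2(CPM + 0.5), each centred on its own mean. This measure is also small between genes that vary little, such as Jund, so a small value there need not mean a shared pattern. Among pairs of members, Fosb and Junb were the closest at 0.0699 log2 units, followed by Jun and Jund at 0.0961, and Fos and Jund were the farthest apart at 0.535. Among 13312 named genes with a mean of at least 1 CPM, the 5 most like Fos were Arc, a postsynaptic immediate early gene (0.133), Nr4a1, an orphan nuclear receptor (0.160), Egr1, a zinc-finger factor (0.178), Tnfrsf25, a death receptor (0.208), and Sik1, a salt-inducible kinase (0.218). Arc had 111, 139 and 97.1 CPM in Gls1_CamkIIaCre and 86.6, 74.4 and 59.9 CPM in control (edgeR adjusted p = 0.172). Of these 5, Tnfrsf25 was called higher (edgeR adjusted p = 0.0122), and the others had adjusted p between 0.0624 and 0.255. Those most like Jund were Crip2, Ssbp4, Tkt, Tmem222 and Smap2, at 0.0133 to 0.0160, and none of them was called by edgeR.

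**Figure D4:**
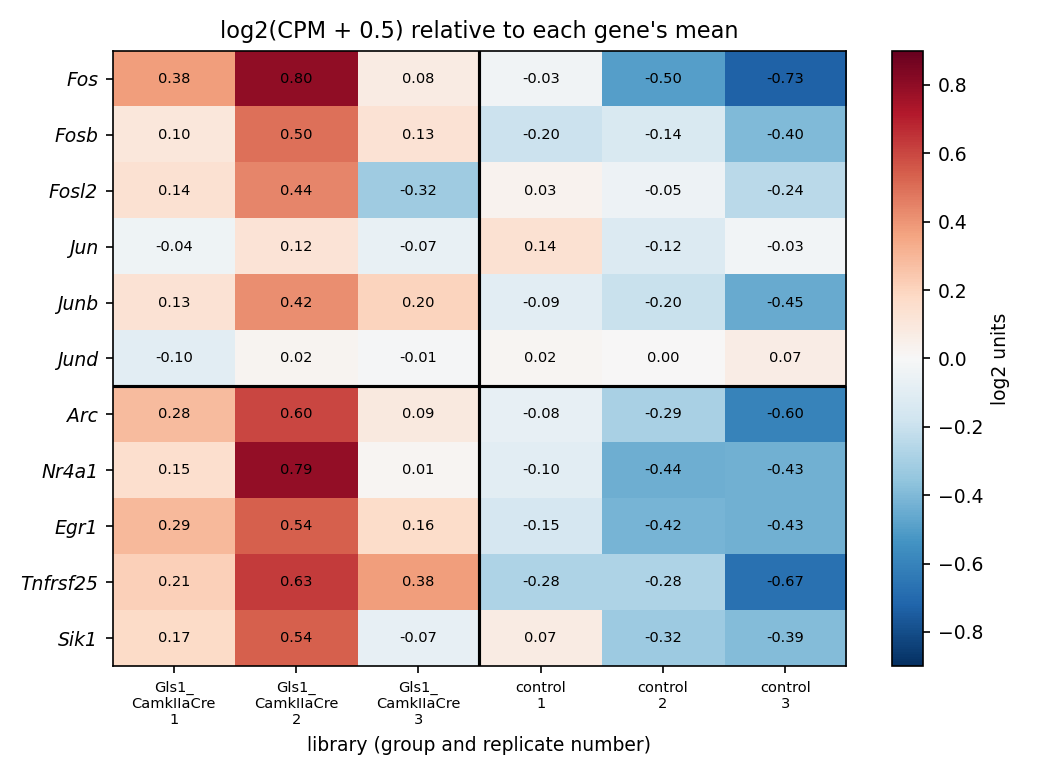
Log2(CPM + 0.5) of the 6 members (above the line) and the 5 genes nearest to Fos (below it), each relative to its mean over the libraries, with Gls1_CamkIIaCre libraries left of control libraries. Gls1_CamkIIaCre 2 is the highest library for Fos, Fosb, Fosl2, Junb and the 5 neighbours, and Jund is nearly flat.

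Genes around AP-1 were read from 5 lists, each described by its count of calls. Of 20 tested bZIP genes that can pair with Fos or Jun proteins or are their close relatives, none rose and 1 fell by edgeR, a share near the 4.29% of all tested genes called lower. That gene was Ddit3, which encodes the stress factor CHOP, at 16.0 ± 1.96 CPM in Gls1_CamkIIaCre and 21.5 ± 0.667 CPM in control (SD, n = 3 each, log2 fold change -0.43, edgeR adjusted p = 0.00542). DESeq2 and limma voom also called 0 higher and 1 lower, and 1 was higher and 1 lower at an unadjusted edgeR p under 0.05. The list's median log2 fold change was 0.0082. Atf3, itself an immediate early gene, was scarce, at 0.830 CPM in Gls1_CamkIIaCre and 0.349 CPM in control (edgeR adjusted p = 0.180).

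Of 26 kinases, coactivators and transcription factors that act upstream of Fos and Jun, 1 rose and none fell by edgeR, a share near the 3.95% of all tested genes called higher. Mef2c, a calcium-regulated factor of excitatory neurons, had 947 ± 47.9 CPM in Gls1_CamkIIaCre and 847 ± 50.6 CPM in control (SD, n = 3 each, log2 fold change 0.16, edgeR adjusted p = 0.0366). The list's median was 0.032, and DESeq2 and limma voom likewise called 1 higher and 0 lower, with 5 higher and 1 lower at an unadjusted edgeR p under 0.05. Of 11 genes of Fos and Jun protein or mRNA turnover, such as the ubiquitin ligase gene Fbxw7, 0 were called by edgeR, DESeq2 or limma voom and 0 had an unadjusted edgeR p under 0.05, with log2 fold changes between -0.094 and 0.072.

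Of 30 other immediate early genes, 10 rose and none fell by edgeR, beside 3.95% of all tested genes called higher and 4.29% called lower. The list's median log2 fold change was 0.36. DESeq2 called 13 higher and limma voom 14, both with 0 lower, and 17 were higher and 3 lower at an unadjusted edgeR p under 0.05. Klf2, a Krüppel-like factor, had 11.0, 11.2 and 9.17 CPM in Gls1_CamkIIaCre and 5.77, 6.55 and 6.30 CPM in control (log2 fold change 0.75, edgeR adjusted p = 0.00114). The others of smallest p were Egr4, Nr4a3 and Per1, which rose by log2 fold changes of 0.56, 0.87 and 0.51. With any 1 library left out, between 7 and 12 of the list were called higher. As with the family, the members differed. Those lower at an unadjusted edgeR p under 0.05 were Egr3, Nr4a2 and Ctgf, with log2 fold changes of -0.12, -0.19 and -0.21. Homer1, whose counts sum all transcripts of the gene, had a log2 fold change of -0.030 (edgeR adjusted p = 0.755).

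Of 18 tested genes described as targets of Fos-Jun dimers in neurons, 5 fell and 1 rose by edgeR, beside 4.29% of all tested genes called lower and 3.95% called higher. The list's median log2 fold change was -0.17. Targets that the dimers activate and targets that they repress were not separated, so the list has no expected direction. DESeq2 called 6 lower and limma voom 7, each with 1 higher, and 7 were lower and 1 higher at an unadjusted edgeR p under 0.05. Nptx2, a pentraxin that gathers AMPA receptors, had 29.3, 35.4 and 27.2 CPM in Gls1_CamkIIaCre and 54.4, 47.3 and 57.1 CPM in control (log2 fold change -0.79, edgeR adjusted p = 0.00102). Rgs2, a regulator of G-protein signalling, fell by 0.38 on the log2 scale, and the neuropeptide gene Npy by 0.25. The opioid precursor genes Penk and Pdyn fell by 1.63 and 0.85. Both are also on the list of striatal neuron markers given above, which was lower as a whole, and Npy is on that of inhibitory neurons; the part of these cell types in the result was not tested. Gria2, an AMPA receptor subunit gene, rose by 0.13. The count of 5 that fell became 3 without Gls1_CamkIIaCre 1, Gls1_CamkIIaCre 2, Gls1_CamkIIaCre 3 or control 1, and 7 without control 2.

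**Figure D5:**
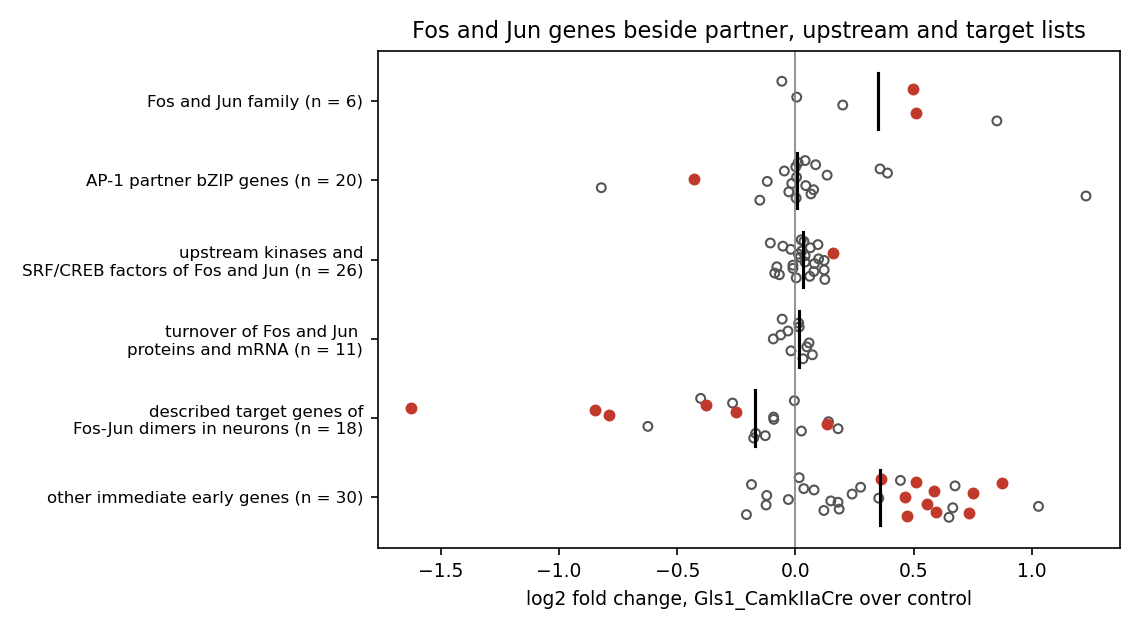
Log2 fold change of Gls1_CamkIIaCre over control for every tested gene of the family and of 5 lists, with filled red points for genes past an edgeR adjusted p of 0.05, open points for the rest and a black bar at each list's median. The family and the other immediate early genes lie mostly right of 0, at medians of 0.35 and 0.36, and the target list left of it, at -0.17. Activated and repressed targets are not separated.

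Heat shock genes were set beside the family as a further list, which cannot tell whether handling before dissection differed between the groups. Of 10, 0 were called by edgeR or limma voom and 1 was called higher by DESeq2, with 2 higher and 3 lower at an unadjusted edgeR p under 0.05. Their summed level was 2822 to 3031 CPM in Gls1_CamkIIaCre and 2821 to 2950 CPM in control. The striatal markers moved with the groups at the summed levels given above. Their part in the Fosb and Junb results was not tested, nor was that of handling.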

How the data were processed

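Gene-level counts in whole numbers were deposited by the authors, as was a table of FPKM (fragments relative to transcript length and depth). The submitters' processing notes name the build GRCm38 (mm10). What aligner, counter, strand setting and FPKM tool were used is not given in the sources used here. TRIzol extraction was followed by SMARTER library preparation, per the labels' protocols. All 6 members matched NCBI genes of GRCm38.p6, and no other RefSeq gene overlaps their spans.

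The main test was run in edgeR 4.0.16 under R 4.3.3 (TMM, filterByExpr, robust glmQLFit and glmQLFTest, no covariate), adjusted by Benjamini-Hochberg over all tested genes. Standard errors are the log2 fold change divided by the square root of the F statistic. Alternatives used DESeq2 1.42.0, limma 3.58.1, other scalings, filters and inputs, a replicate block, and 1 library left out. The procedure was tested on simulated counts with the same small biological spread set for every gene, so that run did not cover genes as variable as Fos. Members and lists were chosen with earlier results of these data known. Named genes were the members, Camk2a, Fosl1, the called genes of each list (the 4 of smallest p beyond 6) and the 5 nearest profiles of Fos and of Jund. A few more were named for comparison after their values were seen. No library duplicated another of its group (chi-square per degree of freedom 2.25 to 4.05). The labels do not say how mice were paired. The p-values of edgeR test the group difference against the spread between these 6 libraries, moderated by that of other genes. The level of the targeted gene is not reported here.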

Additional observations from a re-analysis of the deposited data

How the results depend on the processing

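Counts as input gave Fosb and Junb higher with an adjusted p under 0.05 under each of the 8 alternatives of tool, scaling, filter, block and fit. On FPKM both lost the call: Fosb had a log2 fold change of 0.32 on log2(FPKM + 1), with or without a filter, and 0.40 on log2(FPKM + 0.1), and Junb 0.39 and 0.40, so 0 members were called there. Fos passed with limma voom (0.85), the replicate block (0.85) and the non-robust fit (0.85). Jun, near 0, turned to -0.011 with upper-quartile factors, -0.038 on log2(FPKM + 1), filtered or not, and -0.040 on log2(FPKM + 0.1). At a threshold of 0.01, 1 member was called. With 1 library left out, log2 fold changes ranged from 0.37 to 0.58 for Fosb, 0.40 to 0.58 for Junb, 0.64 to 1.08 for Fos, 0.010 to 0.38 for Fosl2, -0.054 to 0.082 for Jun and -0.082 to -0.024 for Jund. The number of members called higher then ranged from 1 to 3, and that of target genes called lower from 3 to 7, a check added after the data were seen. Over all genes, calls ranged from 197 to 556 higher and 218 to 542 lower with 1 library left out. They were 863 higher with the replicate block, 110, 112 and 32 higher on the 3 FPKM inputs, 146 lower on unfiltered FPKM, 898 higher and 964 lower at a threshold of 0.1, and 194 higher and 208 lower at 0.01. Except where values are given above, the cause of these shifts was not tested. Same-numbered libraries did not deviate together in all pairs (correlation of deviations 0.210, -0.0749 and 0.251), so the numbers were not taken as pairs. Under the block, Fos had an adjusted p of 0.00758, the only change of a call among the 6 genes. With 3 libraries a group, the 95% interval of Fosl2 spans 0.774-fold to 1.71-fold.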
